A study of Mus musculus with 8 samples.

Results

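The genes described here are 9 transcription factors that govern how keratinocytes, the epithelial cells of epidermis and hair follicle, are committed and differentiate: Trp63, Tfap2a, Tfap2c, Grhl1, Grhl3, Ovol1, Zfp750, Cebpa and Cebpb. They were chosen by name, as the entries of the deposited table that carry these gene symbols, and they are 9 of the 18770 genes in that table. All 9 were among the 15964 genes tested, where a gene needed 3 or more normalized counts in 4 or more of the 8 libraries. RNA was taken from dorsal skin of wildtype C57BL/6 mice (C57BL/6J in the study's methods) aged 7 to 8 weeks at D4, that is 4 days after depilation, a procedure that starts a new hair cycle and that both groups underwent. Mice of the AP group were given alpinetin (AP), a plant flavonoid, on the skin once a day as 20 µl of a 3 mg/ml solution in 65% ethanol, and mice of the vehicle control (VC) group were given 20 µl of 65% ethanol. Each group has 4 libraries, named AP.1 to AP.4 and VC.1 to VC.4. By the study's methods the tissue was dermis with hair follicles, taken after the epidermis between the follicles was removed. How complete this removal was in each library was not tested. The level of each factor is an average over the cells of a mixed tissue.

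p63, the product of Trp63, holds cells in the keratinocyte lineage and keeps the basal layer proliferative, and the AP-2 proteins encoded by Tfap2a and Tfap2c act with it on basal keratin genes. The grainyhead-like proteins, OVOL1 and ZFP750 act later, when cells leave the basal layer, stop dividing and build the cornified barrier, and the C/EBP proteins join the exit from the cell cycle to differentiation. In the hair follicle the same factors serve the outer root sheath, the lineages of the hair shaft and the sebaceous gland.

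Values are normalized counts, that is reads per gene divided by 1 size factor per library. Between 6454563 and 7264151 reads per library lay on the listed genes in the VC group and between 8507783 and 11190113 in the AP group. The 13 mitochondrially encoded genes took 54.3%, 44.9%, 42.1% and 52.3% of these reads in VC.1 to VC.4, against 11.1%, 7.85%, 5.32% and 10.3% in AP.1 to AP.4. The shares did not overlap (difference of the means -39.8 percentage points, exact permutation test of 2 sides, p = 0.0286, the smallest that 70 assignments of 4 libraries against 4 allow). Outside these genes, 3080758 to 3762217 reads per library remained in the VC group and 7561598 to 10594787 in the AP group, so a read was worth 1.37 to 1.88 normalized counts over the VC libraries, against 0.498 to 0.725 in the AP libraries. The part of this difference in the results below was not tested, other than by drawing the reads of every library down to 3080758 and by scaling to total counts without the mitochondrial genes. Here and below each log2 fold change compares AP with VC on log2(normalized counts + 1), and a gene is called at an adjusted p under 0.05. With the reads drawn down limma called 2 of the 9 factors higher, Grhl3 (3.35, adjusted p = 0.0383) and Zfp750 (0.97, adjusted p = 0.0494), beside 6.33% of all genes. With the scaling that leaves out mitochondrial genes limma called 954 genes (5.98%) higher, 526 (3.30%) lower and 0 of the 9 factors, with log2 fold changes of 3.53 for Grhl3 and 1.01 for Zfp750.

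The mean level was higher in the AP group for 8 of the 9 factors and lower for Cebpb, while with scaling by total counts, which moved the median of all genes by 0.84 on the log2 scale, it was higher for 9. Of all genes tested, 53.5% had a log2 fold change above 0 in limma. Grhl3 stood apart from the other members: its mean was 6.17 times as high in the AP group, and its AP and VC libraries did not overlap. The libraries of the other 8 factors overlapped between the groups, and of all genes tested 10.3% had every AP library above every VC library. Within the groups the libraries differed in a shared way: VC.4 was the lowest of the 8 libraries for 8 factors, and AP.4 was above AP.1 and AP.2 for 9. The shares of all genes with these orders are not given here.

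**Figure D1:**
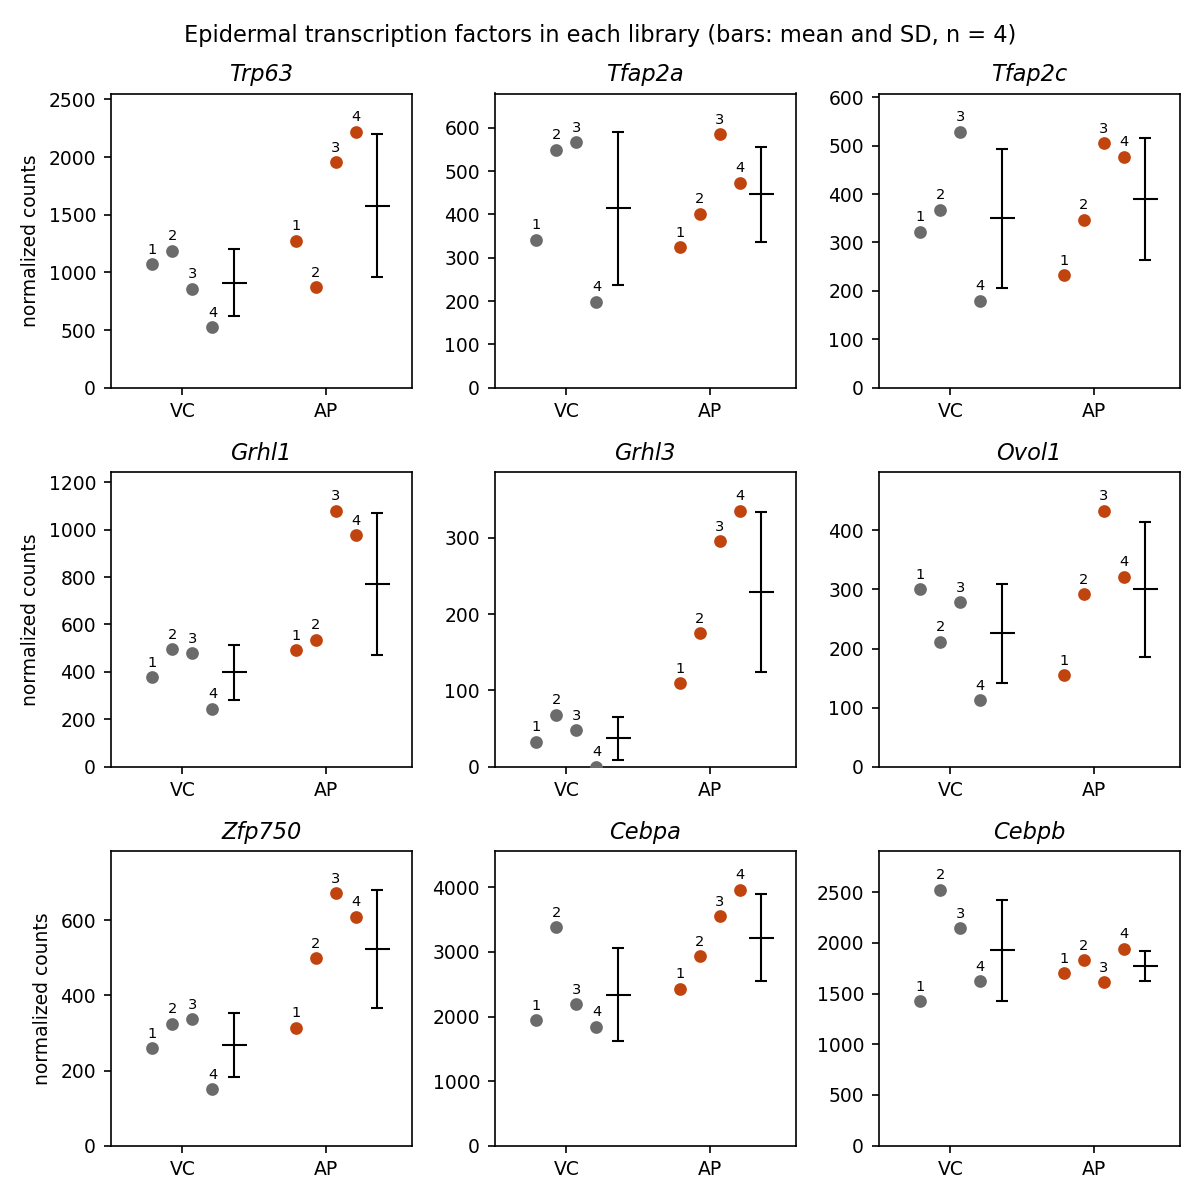
Normalized counts (vertical axes, from 0) of the 9 factors in each VC (grey) and AP (orange) library, with library numbers beside the points and bars for the mean and SD of 4 libraries. Grhl3 runs from 0 to 68.0 in the VC group and from 110 to 335 in the AP group, and the groups overlap in the other 8 panels.

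Trp63 (ENSMUSG00000022510, chr16:25683763-25892102 in mm10, + strand, 8 annotated transcripts) encodes p63. It had 1070, 1190, 859 and 527 normalized counts across VC.1 to VC.4, with 1274, 871, 1955 and 2219 across AP.1 to AP.4. AP.3 and AP.4 were the highest libraries, whereas AP.2 lay inside the VC range. The means were 911 ± 290 (SD, n = 4) for VC and 1580 ± 618 (SD, n = 4) for AP. The log2 fold change was 0.77 (SE 0.32, 95% interval 0.07 to 1.46), and the difference was not called (limma, adjusted p = 0.130). In bulk tissue, more cells of a type and more RNA per cell cannot be told apart.

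Tfap2a (ENSMUSG00000021359, chr13:40715302-40738376, - strand) encodes AP-2α. Its levels were 342, 550, 567 and 199 normalized counts across VC.1 to VC.4, with 325, 402, 585 and 473 across AP.1 to AP.4. The AP libraries lay within the spread of the VC libraries except for AP.3, which was slightly above VC.3. Tfap2c (ENSMUSG00000028640, chr2:172549593-172558622, + strand), which encodes AP-2γ, had 322, 368, 528 and 180 normalized counts over the VC libraries, against 232, 347, 505 and 477 in the AP libraries. VC.3 was its highest library and no AP library exceeded it. The log2 fold changes of this pair were 0.19 (95% interval -0.50 to 0.88; limma, adjusted p = 0.716) for Tfap2a and 0.20 (95% interval -0.52 to 0.91; limma, adjusted p = 0.720) for Tfap2c. Their sign rested on 1 library, since without VC.4 they were -0.12 and -0.09. The intervals leave room for a change of 1.84-fold for Tfap2a and of 1.88-fold for Tfap2c in the AP direction.

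Grhl1 (ENSMUSG00000020656, chr12:24572283-24617391, + strand) encodes a grainyhead-like activator of desmosomal cadherin genes. It had 377, 497, 479 and 244 normalized counts across VC.1 to VC.4, with 490, 535, 1079 and 977 across AP.1 to AP.4. AP.3 and AP.4 formed a high pair, AP.2 lay just above the VC range and AP.1 lay just inside it. The means were 399 ± 116 (SD, n = 4) for VC and 770 ± 301 (SD, n = 4) for AP. Its log2 fold change of 0.91 (SE 0.30, 95% interval 0.26 to 1.57) was not called (limma, adjusted p = 0.0689). It was called without AP.1 (log2 fold change 1.10, limma, adjusted p = 0.0383), and its adjusted p ranged from 0.00212 to 0.409 over 22 alternatives.

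Grhl3 (ENSMUSG00000037188, chr4:135541888-135573630, - strand) encodes the grainyhead-like factor that is needed for the epidermal barrier and for wound closure. Its mean was the lowest of the 9 in both groups, although in AP.4 it was above Ovol1 (322 normalized counts). Grhl3 had 32.7, 68.0, 47.8 and 0 normalized counts across VC.1 to VC.4, with 110, 175, 295 and 335 across AP.1 to AP.4. Behind these values stood 18, 46, 35 and 0 reads in the VC libraries and 151, 325, 593 and 469 reads in the AP libraries. Every AP library was above every VC library, with 110 in the lowest AP library and 68.0 in the highest VC library. The 0 of VC.4 allows up to 5.63 normalized counts there (3 reads), a limit for counting error, since, with no molecular identifiers, several reads may stem from 1 molecule. Of 10973 genes with at least 32.7 normalized counts in each of VC.1, VC.2 and VC.3, 1 gene, Grhl3, had no read in VC.4, and the same count was 13 for VC.1, 1 for AP.2 and 0 for the other libraries; this level was chosen after the values of Grhl3 were seen. The mean was 37.1 ± 28.7 (SD, n = 4) for VC and 229 ± 105 (SD, n = 4) for AP.

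The log2 fold change of Grhl3 was 3.52 (SE 1.08, 95% interval 1.14 to 5.89), with an adjusted p of 0.0589 in limma, and it was not called. Much of its size and of its error came from VC.4. Without that library the log2 fold change was 2.12 and the adjusted p from limma 0.0217, and without VC.2 they were 4.15 and 0.0448. Of the tests on the reads, 2 called it, with a log2 fold change of 2.58 in edgeR (adjusted p = 0.0275) and of 2.62 in DESeq2 (adjusted p = 0.0390). In limma-voom on the reads it was not called (3.38, adjusted p = 0.0604). Over the 22 alternatives the log2 fold change stayed above 0, from 1.88 to 4.21, and the adjusted p ranged from 0.00507 to 0.344.

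Ovol1 (ENSMUSG00000024922, chr19:5549136-5560646, - strand) encodes a zinc finger repressor that helps keratinocytes leave the cell cycle. It had 300, 211, 279 and 113 normalized counts across VC.1 to VC.4, with 154, 292, 433 and 322 across AP.1 to AP.4. AP.1 was the lowest library after VC.4, and AP.3 and AP.4 were above the VC range. The log2 fold change was 0.41 (95% interval -0.36 to 1.19; limma, adjusted p = 0.458), a difference within the spread of the libraries.

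Zfp750 (ENSMUSG00000039238, chr11:121510978-121519333, - strand), the mouse counterpart of ZNF750, encodes a factor of late differentiation that acts downstream of p63. It had 260, 325, 337 and 150 normalized counts across VC.1 to VC.4, with 314, 499, 673 and 610 across AP.1 to AP.4. AP.2, AP.3 and AP.4 were above all VC libraries, while AP.1 lay below VC.2 and VC.3. The means were 268 ± 85.7 (SD, n = 4) for VC and 524 ± 157 (SD, n = 4) for AP. Its log2 fold change of 0.97 (SE 0.29, 95% interval 0.33 to 1.62) was not called (limma, adjusted p = 0.0555). Without AP.1 it was 1.20 and was called (limma, adjusted p = 0.0216), and the adjusted p ranged from 0.00192 to 0.321 over 22 alternatives. The gene lies within Tbcd, on its opposite strand, and shares no exon base with it. Tbcd itself was level, at 275 ± 21.0 (SD, n = 4) normalized counts for VC and 275 ± 22.0 (SD, n = 4) for AP.

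Cebpa (ENSMUSG00000034957, chr7:35119293-35121928, + strand) encodes C/EBPα, a factor of growth arrest in keratinocytes, sebocytes and adipocytes. It had 1943, 3389, 2189 and 1843 normalized counts across VC.1 to VC.4, with 2433, 2934, 3553 and 3962 across AP.1 to AP.4. VC.2 stood above the other VC libraries and above AP.1 and AP.2. The log2 fold change was 0.48 (95% interval -0.02 to 0.98; limma, adjusted p = 0.178).

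Cebpb (ENSMUSG00000056501, chr2:167688915-167690418, + strand), which encodes C/EBPβ, was the member whose mean was lower in the AP group. Its levels were 1426, 2523, 2144 and 1620 normalized counts across VC.1 to VC.4, with 1700, 1830, 1609 and 1943 across AP.1 to AP.4. The AP libraries were close together (SD 146, n = 4) and all of them fell inside the VC range (SD 499, n = 4). The log2 fold change was -0.09 (95% interval -0.51 to 0.33; limma, adjusted p = 0.782), and without VC.2 it was 0.05. It was 0.78 with scaling by total counts, below the shift of all genes with that scaling.

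Over the 9 factors, limma called 0 higher and 0 lower in the AP group, against 1011 genes (6.33% of those tested) called higher and 639 (4.003%) called lower among all genes. At an unadjusted p under 0.05, 4 factors were higher (Trp63, Grhl1, Grhl3 and Zfp750) and 0 lower, and of all genes 2720 (17.04%) were higher. edgeR called 1 factor higher (Grhl3), against 1003 genes (6.28%), and DESeq2 called 3 higher (Grhl1, Grhl3 and Zfp750), against 1677 genes (10.5%), while neither called a factor lower. In limma-voom 0 factors were called, against 4.48% of all genes higher and 4.53% lower. The median log2 fold change was 0.48 over the 9 factors and 0.06 over all genes. Leaving out a library changed the number of factors called to 2 without AP.1 (Grhl1 and Zfp750), and to 1 without VC.2 or without VC.4 (Grhl3). Of all genes, 6.78% were called higher without AP.1, 6.22% without VC.2 and 4.54% without VC.4.

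**Figure D2:**
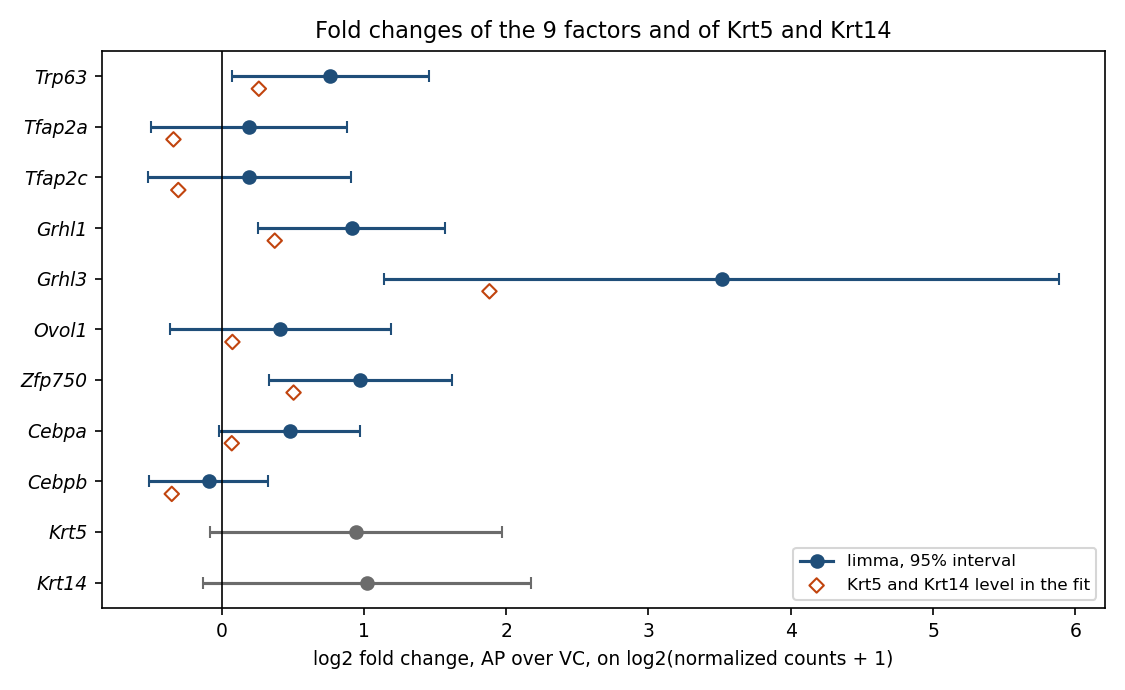
Log2 fold changes (horizontal axis, AP over VC) of the 9 factors (blue) and of Krt5 and Krt14 (grey), with 95% intervals from limma; open diamonds give the factors with the level of Krt5 and Krt14 in the fit. The interval of Grhl3 runs from 1.14 to 5.89, and with the keratins in the fit the factors run from -0.35 (Cebpb) to 1.88 (Grhl3).

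Because levels of genes can be compared only per length, normalized counts were divided by the length of the longest annotated transcript. In the VC group Cebpb (1282 ± 332 per kilobase, SD, n = 4) and Cebpa (891 ± 272 per kilobase, SD, n = 4) were the most abundant factors, and their libraries overlapped. Trp63 followed at 170 ± 54.1 per kilobase (SD, n = 4). Tfap2a (119), Tfap2c (117), Grhl1 (115), Zfp750 (83.0) and Ovol1 (75.9 per kilobase) came next, each overlapping its neighbours in this order, and Grhl3 was lowest at 13.3 ± 10.3 per kilobase (SD, n = 4), below every library of Ovol1. In the AP group Cebpa (1226 ± 257 per kilobase, SD, n = 4) and Cebpb (1177 ± 97.2 per kilobase, SD, n = 4) again led with overlapping libraries. Trp63 (294), Grhl1 (222), Zfp750 (162), Tfap2c (131), Tfap2a (128), Ovol1 (101) and Grhl3 (82.1 per kilobase) followed, and the libraries of Grhl3 (39.3 to 120 per kilobase) then overlapped those of Ovol1 (52.0 to 146 per kilobase). The order depends on the length taken: with the median transcript length, Trp63, Ovol1 and Tfap2a stood at 248.8, 122 and 203 per kilobase in the VC group and at 431, 162 and 219 in the AP group, which put Tfap2a above Zfp750 in the AP group too.

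The levels of the factors were also set beside those of Krt5 and Krt14, the keratin pair of basal cells, whose RNA follows the number of such cells and the RNA in each alike. Krt5 had 11795, 33547, 21185 and 10241 normalized counts across VC.1 to VC.4, with 23014, 21214, 39776 and 60686 across AP.1 to AP.4. Krt14 had 9490, 39471, 21021 and 9915 in the VC libraries and 19369, 24856, 42588 and 65025 in the AP libraries. VC.1 and VC.4 were the lowest libraries and AP.3 and AP.4 the highest, and AP.3 and AP.4 were also the highest for Trp63, Grhl1, Grhl3, Ovol1, Zfp750 and Cebpa. The log2 fold changes were 0.94 (95% interval -0.08 to 1.97; limma, adjusted p = 0.196) for Krt5 and 1.02 (95% interval -0.13 to 2.17; limma, adjusted p = 0.212) for Krt14.

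Relative to the mean log2 level of Krt5 and Krt14 in the same library, the groups differed by -0.22 for Trp63, -0.07 for Grhl1 and -0.01 for Zfp750, AP minus VC. The differences were -0.79 for Tfap2a, -0.79 for Tfap2c, -0.57 for Ovol1, -0.50 for Cebpa and -1.07 for Cebpb, and the libraries of these 8 factors overlapped on this scale too. Grhl3 differed by 2.53, and by 1.38 without VC.4 (left out after seeing the data), with its AP libraries between -7.58 and -7.03 and its VC libraries at -8.29, -9.04, -8.76 and -13.30. With the keratin level as a covariate in the limma fit over all genes, the log2 fold change of Grhl3 was 1.88, of Zfp750 0.51, of Grhl1 0.37 and of Trp63 0.26. It was 0.08 for Ovol1, 0.07 for Cebpa, -0.30 for Tfap2c, -0.34 for Tfap2a and -0.35 for Cebpb. None of the 9 was called by limma in that fit, which called 194 genes higher and 52 lower.

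**Figure D3:**
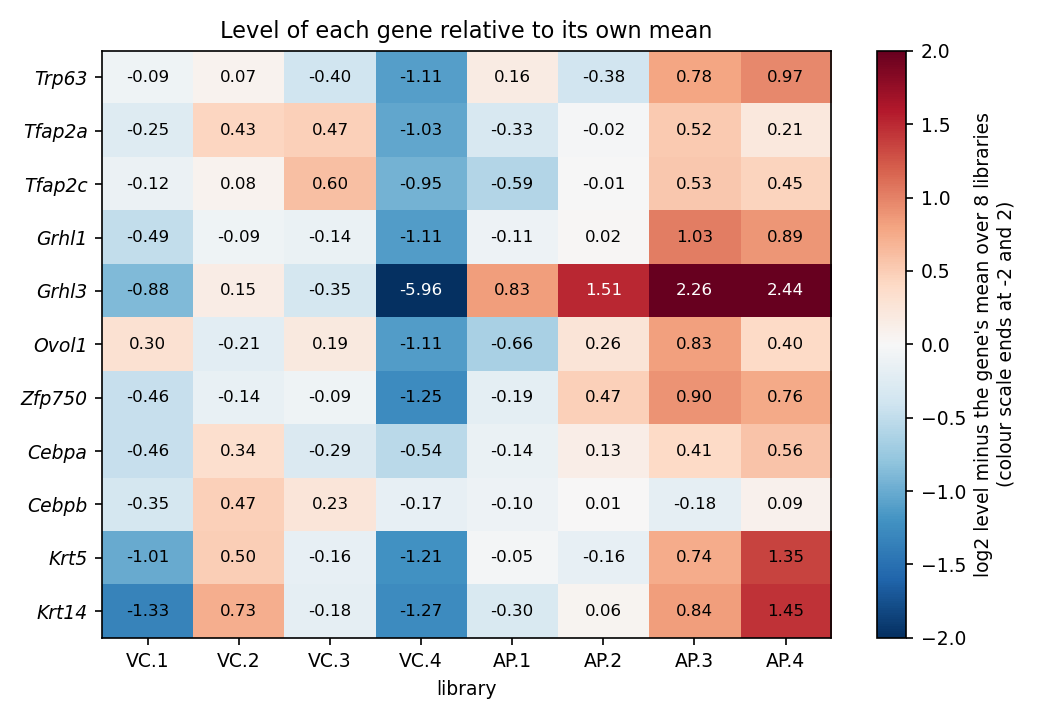
Log2 level of each factor and of Krt5 and Krt14 (down) in each library (across), minus the mean of that gene over 8 libraries; red is above and blue below the mean. VC.4 is the lowest library for all of them except Cebpb and Krt14, and Grhl3 reaches -5.96 there.

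The patterns of the factors over the 8 libraries were compared by the root mean squared difference of their log2 levels, each centred on its own mean, where 0 is an identical pattern. The closest pairs were Grhl1 and Zfp750 (0.18) and Tfap2a and Tfap2c (0.19), followed by Trp63 and Grhl1 (0.26). Cebpa and Cebpb differed by 0.36, and Grhl3 differed from every other factor by at least 1.91, a distance whose size rested largely on the 0 of VC.4. Without that library, a comparison chosen after seeing the data, Grhl3 was nearest to Grhl1 (0.75) and Zfp750 (0.75) and furthest from Cebpb (1.22). Among the other factors the largest distance over the 8 libraries was 0.66 (Zfp750 and Cebpb). Over 11256 genes with a mean of at least 50 normalized counts, the patterns nearest to Grhl1 were those of Lad1 (0.07), Pkp3 (0.11) and Hr (0.12), genes of the basement membrane anchor, the desmosome and a follicle corepressor. Nearest to Tfap2a were Efnb1 (0.10), Irx4 (0.15) and Dok4 (0.17), and nearest to Tfap2c were Efnb1 (0.16), E2f2 (0.18) and Tfap2a itself. Nearest to Ovol1 were Atad2b (0.17) and the ephrin receptor genes Epha2 (0.19) and Epha1 (0.21). For Zfp750 they were Naa25 (0.12), Midn (0.14) and Zdhhc21 (0.14), and for Trp63 Hells (0.15), Gm38287 (0.16) and Eef2k (0.18). For Cebpa they were Rad23b (0.08), Atp1b3 (0.09) and Zbtb7b (0.09), and for Cebpb Mrpl9 (0.08), Sf3a2 (0.10) and Arrdc1 (0.11). For Grhl3 over 8 libraries they were Tdh (0.67), the cystatin gene Csta1 (1.14) and Serpinb2 (1.18), and without VC.4 the desmosomal genes Dsp (0.14) and Pkp1 (0.15) and the lipase gene Pnpla1 (0.17).

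Reads of overlapping genes cannot be told apart where counting ignores strand, and strand was not given in the sources used here. The annotation places no other exon over Trp63, Grhl1, Grhl3, Zfp750 or Tfap2c, and exons of other genes over the other 4 factors. Tmem189, on the opposite strand, shares 312 exon bases (20.7%) with Cebpb. Its level was 977 ± 449 normalized counts (SD, n = 4) for VC and 1039 ± 64.1 (SD, n = 4) for AP. Gm31166 and AC126029.1 share 690 (19.8%) and 76 exon bases with Ovol1. Gm45091 shares 51 exon bases with Cebpa, at 282 ± 109 normalized counts (SD, n = 4) for VC and 436 ± 79.4 (SD, n = 4) for AP (limma, adjusted p = 0.0930). Over Tfap2a lie Gm47061 (265 exon bases), Gm26688 (380) and Gm47067 (73), with means of 45.1, 16.3 and 7.99 for VC and 102, 32.0 and 3.01 for AP, none of them called by limma.

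Promoter sequences were taken from RefSeq (GRCm38.p6, the assembly of mm10), which held 7 promoters of 5 factors: Grhl1 and Tfap2a with 2 starts each, and Grhl3, Cebpa and Cebpb with 1. Trp63, Tfap2c, Ovol1 and Zfp750 were not matched. The 250 bases before each start were searched on both strands for the letters of sites these families are known to bind. The AP-2 letters GCCNNNGGC were found in 1 of the 7, the upstream promoter of Grhl1, at 82 to 74 bases before the start, and 13.7% of all 32851 promoters hold them. A TATA box, TATAAA, was found in 1, that of Cebpa, at 30 to 25 bases before the start, and 12.4% of all promoters hold it. The grainyhead letters AACCGGTT (0.116% of all promoters), the C/EBP letters TTGCGCAA (0.164%) and TTGCNNAA (9.56%, which includes every match of the former), the OVOL letters CCGTTA (2.18%) and a pair of p63 cores, CATG, with 6 bases between them (0.490%) were in none of the 7. The G and C content ran from 47.6% at a start of Tfap2a to 81.6% at Cebpb, with a median of 60.4% over the 7 and of 52.4% over all promoters. The log2 fold changes of the grainyhead-like pair were 0.91 for Grhl1 and 3.52 for Grhl3, neither called by limma. Shown are the upstream promoter of Grhl1 and the promoters of Grhl3 and Cebpa, with the matched letters in capitals. They are chr12:24572037-24572286 (+ strand, 75.6% G and C), chr4:135573633-135573882 (- strand, 56.0% G and C) and chr7:35119043-35119292 (+ strand, 66.4% G and C), each written from 5′ to 3′ along the gene.
Grhl1: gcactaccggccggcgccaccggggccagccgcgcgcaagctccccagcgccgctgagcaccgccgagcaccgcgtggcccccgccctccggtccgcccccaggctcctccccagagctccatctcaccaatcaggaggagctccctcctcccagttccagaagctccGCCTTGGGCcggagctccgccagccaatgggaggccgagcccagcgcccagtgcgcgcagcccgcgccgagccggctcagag
Grhl3: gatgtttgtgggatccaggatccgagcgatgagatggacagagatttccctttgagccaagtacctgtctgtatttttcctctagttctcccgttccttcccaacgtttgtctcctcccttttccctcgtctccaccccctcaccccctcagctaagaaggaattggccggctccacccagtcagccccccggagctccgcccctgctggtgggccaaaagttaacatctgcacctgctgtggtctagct
Cebpa: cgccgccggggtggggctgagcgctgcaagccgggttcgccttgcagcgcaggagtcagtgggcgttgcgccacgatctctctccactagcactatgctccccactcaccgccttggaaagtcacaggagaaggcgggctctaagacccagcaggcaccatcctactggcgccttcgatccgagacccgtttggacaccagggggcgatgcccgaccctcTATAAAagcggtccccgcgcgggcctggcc

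Among 36 tested genes of 37 listed partners, relatives and other factors of epidermal differentiation, 2 were called higher and 2 lower, beside 6.33% and 4.003% of all genes, and the median log2 fold change was 0.45, while DESeq2 called 6 higher and 4 lower (10.5% and 8.53% of all genes) and limma with total counts 24 higher and 0 lower (54.3% and 0.438%). Klf4, the barrier factor, rose by 1.07 (95% interval 0.66 to 1.49; limma, adjusted p = 0.0108) and had the most counts of the list over the 8 libraries together. Pou3f1, a POU factor of suprabasal cells, rose by 1.89 (95% interval 1.09 to 2.68; limma, adjusted p = 0.0149), a call lost without AP.3 (log2 fold change 1.77). Zeb1 and Zeb2, repressors of epithelial genes, fell by 1.39 (limma, adjusted p = 0.0146) and 0.92 (limma, adjusted p = 0.0108), and like Klf4 and Pou3f1 they had groups that did not overlap. The same held for Klf5 and Nr3c1, higher in the AP group, and for Hes1 and Id2, lower, which were not called. Of all genes tested 10.3% had every AP library above every VC library. The calls of Klf4, Pou3f1, Zeb1 and Zeb2 ended with the keratin covariate (1.01, 1.23, -1.10 and -0.69). That fit called 1.22% of all genes higher and 0.326% lower. The call of Pou3f1 also ended without the intensity trend, where 2.36% of all genes were called higher and 1.35% lower. Those of Zeb1 (-0.52) and Zeb2 (-0.0530) also ended with total counts. The summed level of the list was 14716, 13859, 16485 and 13161 normalized counts across VC.1 to VC.4, with 15198, 16153, 19874 and 20231 across AP.1 to AP.4.

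Of 21 genes of the basal programme, on which p63 and the AP-2 proteins are known to act, 13 were called higher and 0 lower, beside 6.33% and 4.003% of all genes (0 lower at an unadjusted p under 0.05, in edgeR and in DESeq2), with a median log2 fold change of 1.19. The largest changes called were those of the desmosomal cadherins Dsg3 (3.24) and Dsc3 (2.18), the integrin Itga6 (1.92) and the laminin chain Lama3 (1.89), and Krt14 had the most counts. The number called was 6 without VC.1, VC.4 or AP.2 (3.66%, 4.54% and 2.49% of all genes). It was 4 without AP.3 or AP.4 (1.31% and 1.59% of all genes). Lama3 was not called without any 1 of these 5 libraries. The number was 4 without the intensity trend (2.36% of all genes), 6 with the length trend removed (3.61%) and 20 with total counts (54.3%). With the keratin covariate, which fixes Krt5 and Krt14 themselves, it was 4 of the other 19 (1.22% of all genes), with a median of 0.65. The summed level was 32734, 88935, 56904 and 27053 normalized counts across VC.1 to VC.4, with 63883, 68225, 122446 and 166413 across AP.1 to AP.4.

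Of 30 genes of suprabasal and terminal differentiation, 24 were called higher and 0 lower, beside 6.33% and 4.003% of all genes (1 lower at an unadjusted p under 0.05, 0 in edgeR and in DESeq2), with a median log2 fold change of 2.58. They included Alox12b (4.86), a lipoxygenase of the barrier with no read in VC.1 and VC.2, and the cornified envelope gene Hrnr (4.41). The keratins Krt77 (3.95) and Krt10 (3.85) were also among them, the last with the most counts. The log2 fold change of Alox12b was 3.51 in edgeR and 3.58 with a pseudocount of 5. Alox12b was not called in DESeq2 (3.61), in limma-voom (4.93), without the intensity trend (4.86) or with the keratin covariate (4.54). Hrnr was not called in limma-voom (4.41) or with the keratin covariate (3.79). Without AP.3 or without AP.4 the number called was 12 (1.31% and 1.59% of all genes), and Alox12b was then not called (log2 fold changes of 4.61 and 4.58). The number was 9 with the keratin covariate (1.22% of all genes) and 12 without the intensity trend (2.36%). The summed level was 9983, 17853, 13388 and 9491 normalized counts across VC.1 to VC.4, with 52842, 49649, 143811 and 194354 across AP.1 to AP.4. AP.3 and AP.4 were the highest libraries of this sum, as they were for Trp63, Grhl1, Grhl3, Ovol1, Zfp750 and Cebpa, and every AP library was above every VC library.

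Markers of other cells and of tissue handling were read beside these levels, and their part in the levels of the factors was not tested; no gene of the marker lists that held a call was at 0 in any library. The study's methods describe removal of the epidermis between the follicles, but how complete it was in each library was not tested. All 5 suprabasal markers (Krt1, Krt10, Lor, Ivl and Flg, which are also among the 30 genes above, Krt10 with the most counts) were called higher, beside 6.33% of all genes. Their sum was 2878, 8608, 5329 and 3585 normalized counts across VC.1 to VC.4, with 30816, 32818, 85564 and 132825 across AP.1 to AP.4. With the keratin covariate 2 were called (1.22% of all genes). The number was 5 without AP.2 (2.49%) and 4 without any 1 of the other libraries (1.31% to 6.78%). All 7 immediate early genes, which dissection itself can induce, were called higher, with Fosb (3.29), Fos (2.56), Egr1 (1.86), Junb (1.83) and Jun (1.19), the last with the most counts over the 8 libraries together. Their sum was 2656, 2527, 3374 and 2269 in the VC libraries and 9945, 7594, 9909 and 7477 in the AP libraries. At least 6 were called without any 1 library (1.31% to 6.78% of all genes).

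Beside 6.33% of all genes called higher and 4.003% called lower, 3 of 5 melanocyte markers were called lower: Mlana (-2.03), Tyr (-1.37) and Pmel (-1.35), with the most counts on Dct and a sum of 4222, 3189, 3763 and 1313 normalized counts across VC.1 to VC.4, with 1212, 1463, 1943 and 1111 across AP.1 to AP.4. The number called was 5 without VC.4 (2.96% of all genes lower) and 1 (Mlana) without any 1 of the other libraries (0.589% to 5.12%). It was also 1 with the keratin covariate (0.326%), with total counts (0.438%) and without the intensity trend (1.35%). Of 3 endothelial markers, Pecam1 (1.44, with the most counts) and Cdh5 (1.75) were called higher, with Cdh5 not called without VC.1, VC.2, AP.2, AP.3 or AP.4 and none called without the intensity trend, and the sum was 598, 421, 862 and 909 in the VC libraries and 1549, 3961, 1434 and 1447 in the AP libraries.

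Of 8 myeloid markers, S100a9 (3.11) was called higher (6.33% of all genes were). That call ended without any 1 of VC.1, VC.3, VC.4, AP.2, AP.3 and AP.4 (log2 fold changes from 2.53 to 3.08). It also ended in limma-voom (3.13), without the intensity trend (3.11) and with the keratin covariate (1.82). Lyz2, with the most counts, had a log2 fold change of -1.08 (limma, adjusted p = 0.0786, and DESeq2, adjusted p = 0.0137). The median of the list was -0.64 (0.21 with total counts). At an unadjusted p under 0.05, 2 were higher and 3 lower (17.04% of all genes were higher), and DESeq2 called 2 higher and 2 lower (10.5% and 8.53% of all genes). Their sum was 11682, 5648, 4815 and 14794 normalized counts across VC.1 to VC.4, with 6124, 4905, 3675 and 4040 across AP.1 to AP.4. No gene was called by limma, edgeR or DESeq2 among the 33 markers of keratinocytes, hair follicle stem cells, hair matrix, sebocytes, fibroblasts, adipocytes and skeletal muscle. Of all genes limma called 6.33% higher and 4.003% lower, edgeR 6.28% and 4.46%, and DESeq2 10.5% and 8.53%. At an unadjusted p under 0.05 in limma, where 17.04% of all genes were higher, 4 of the 33 were higher and 4 lower. The 4 lower ones were skeletal muscle markers, a list with a median log2 fold change of -1.74. The muscle sum was 37898, 55826, 27510 and 30375 in the VC libraries and 49603, 7247, 4318 and 9559 in the AP libraries. Without AP.1, limma called all 5 skeletal muscle markers lower (5.12% of all genes), and without VC.4 it called 1 hair matrix marker lower (2.96%). With total counts limma called 15 of the 33 higher (and 54.3% of all genes), with the keratin covariate 2 higher (1 adipocyte and 1 fibroblast marker; 1.22% of all genes) and with the length trend removed 1 adipocyte marker higher (3.61% of all genes).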

How the data were processed

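Messenger RNA was enriched with oligo-dT beads and sequenced from 4 AP and 4 VC libraries. The authors aligned the reads with STAR (mm10), used featureCounts for counts per gene (the submitters' processing notes name HTSeq) and normalized them with DESeq2. The deposited values are a signal, reads divided by 1 size factor per library. The table also holds the authors' fold change, Wald statistic, p-value and adjusted p-value, which were not used. All 150160 values were whole multiples of 1 read (tolerance 0.02), so reads were recovered. Library columns could not be tied to single mice.

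limma 3.58.1 with an intensity trend (R 4.3.3) was run on log2(value + 1), with Benjamini-Hochberg adjustment over 15964 genes. edgeR 4.0.16 (quasi-likelihood) and DESeq2 1.42.0 on the recovered reads were alternatives, with other scalings, pseudocounts of 0.5 and 5, filters, depth, a keratin covariate, a transcript length trend, the call rule of the study's methods (fold change above 1.5 and unadjusted p below 0.01, there from DESeq2 and here from limma) and each library left out. The limma step was tested on simulated data. Exon lengths and coordinates came from GENCODE M21. Named are the factors, in each list up to 4 called genes with the largest change and the gene with the most counts, called related factors, and the 3 nearest patterns per factor. Lists cover related factors, the basal programme, terminal differentiation and 12 sets of markers, and 1 further planned set is not reported. The members and lists were chosen with earlier results of these data known.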

Additional observations from a re-analysis of the deposited data

Results flagged for a closer look

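Within each group of 4 libraries, the highest or lowest library was compared with the rest by Dixon's ratio for the named genes, the list sums, the factors relative to Krt5 and Krt14 and the mitochondrial share. Of 138 such groups 8 held a library that stood apart, where chance gives about 1 in 20. Among the factors, this was Grhl3 relative to Krt5 and Krt14 in VC.4, at -13.30 on the log2 scale, against -9.04 in the next VC library. It follows from the 0 reads of Grhl3 in that library. The others were markers. AP.2 was high for the endothelial genes Pecam1 (2244 normalized counts, next 896) and Cdh5 (1373, next 463) and for the endothelial sum (3961, next 1549). AP.1 was high for the muscle gene Acta1 (20882 normalized counts, next 4337) and for the muscle sum (49603, next 9559). VC.2 was high for the sebocyte sum (13134 normalized counts, next 4226). VC.3 was high for Fosb (79.2 normalized counts, next 32.5).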

How the results depend on the processing

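The factors called higher in the AP group numbered 0 in limma (6.33% of all genes) and limma-voom (4.48%), 1 in edgeR (6.28%) and 3 in DESeq2 (10.5%). They numbered 1 with upper-quartile factors (7.32%), 9 with total counts (54.3%), 1 with a pseudocount of 5 (7.14%) and 2 with reads drawn down (6.33%). With a library left out they numbered between 0 and 2 (1.31% to 6.78%). By the call rule of the study's methods with limma they numbered 2, and the share of all genes by that rule is not given here. No factor was called lower in limma or under these alternatives. Genes called higher and lower numbered 1677 and 1362 in DESeq2, 376 and 216 without the intensity trend, 8664 and 70 with total counts, 194 and 52 with the keratin covariate, and 576 and 516 with the length trend removed. With a library left out they ranged from 209 to 1082 and from 94 to 817, lowest without AP.3. Of the genes called, 61.3% were higher in limma and 49.7% in limma-voom. Fold changes that changed sign (log2) were those of Tfap2a (-0.34 with the covariate, -0.12 to 0.38 with a library left out), Tfap2c (-0.30 with the covariate, -0.0886 to 0.43 with a library left out) and Cebpb (0.78 with total counts, 0.10 with the length trend removed, -0.22 to 0.0510 with a library left out). Among markers they were those of Krt15 (-0.17 with the covariate), Shh (0.13 with total counts), Dct (0.0370 with total counts) and Far2 (-0.16 in edgeR, -0.14 in DESeq2, -0.27 with the covariate, -0.15 to 0.95 with a library left out). The cause was not tested. The difference in mitochondrial share ranged from -41.9 to -37.8 percentage points with a library left out, where the exact permutation test cannot go below 0.0571. Of the other values compared for single genes, 900 kept their direction and side of the threshold, 33 passed it, 76 no longer did and 8 moved, namely the levels per kilobase of Trp63, Ovol1 and Tfap2a with the median transcript length and the pattern and keratin-relative difference of Grhl3 without VC.4. Depth limits Grhl3 most, with 0 to 46 reads in the VC libraries. No paired analysis was possible because the libraries could not be tied to single mice and the sample titles of the groups (VC O1, O2, O3 and O5, AP 16, 17, 19 and 20) share no number.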
